A study of Homo sapiens with 30 samples.

Results

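The genes described here are adenylate kinase 4 (AK4) and 9 genes known to respond to low oxygen, namely VEGFA, CA9, SLC2A1, PDK1, ADM, NDRG1, BNIP3, EGLN3 and PFKFB4. They were found by name among the 58780 genes of the deposited count table, and all 10 passed the filter on low counts. The list was drawn up around AK4, which was chosen by its measured counts in these libraries, in a comparison that is not recorded. AK4 is therefore described and not tested, and counts of changed genes refer to the other 9. The other 9 and the gene lists given later were also chosen with earlier results of these data known. Their counts set against the share of all genes are therefore descriptions of these libraries. Nascent transcription was measured by PRO-seq, in which engaged RNA polymerases are run on in permeabilised cells with labelled nucleotides and the new RNA is captured and sequenced. The cells were A549, a human lung adenocarcinoma line. There were 30 libraries in 15 groups of 2.

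All groups received 0.01% DMSO, the solvent. The untreated control is labelled as 15 min in DMSO, so its label does not give the times of the longer treatments. By the labels, an effect of an inhibitor over days cannot be told apart from one of time in culture. The same holds where responses to Dex without and after inhibitor are compared. The glucocorticoid dexamethasone (Dex, 100 nM) was applied for 15 min or 3 h. GSK591 (1 uM), an inhibitor of the arginine methyltransferase PRMT5, and MS023 (1 uM), an inhibitor of the type I arginine methyltransferases, were each applied for 2, 4 or 7 days. Each inhibitor was also given together with Dex for 3 h, and each 7-day treatment was followed by Dex for 15 min or 3 h. No group kept at low oxygen is named in the labels. A549 is 1 line, and nothing in the labels says whether replicates were separate cultures, so the p-values measure the spread between these libraries, which may be technical.

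As background, cells sense oxygen through prolyl hydroxylases, of which EGLN3 is one, that mark the alpha subunits of hypoxia-inducible factor (HIF) for destruction by the VHL ubiquitin ligase. When oxygen is low the alpha subunits persist, pair with ARNT and bind a short DNA core, ACGTG or GCGTG. Their targets move metabolism from respiration to glycolysis, supply vessels and control acidity and mitochondrial turnover. AK4 is an adenylate kinase of the mitochondrial matrix and PDK1 is a kinase that holds back pyruvate dehydrogenase. SLC2A1 (GLUT1) imports glucose, PFKFB4 sets the level of fructose 2,6-bisphosphate, an activator of glycolysis, and CA9 is a cell-surface carbonic anhydrase. VEGFA and ADM are secreted signals to vessels. NDRG1 is a stress-response protein and BNIP3 a mitophagy receptor.

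The promoters of the members differ in whether they hold the letters of the HIF core. RefSeq windows of the 250 bases before a gene's start (GRCh38.p14, the assembly of hg38) were matched for 8 of the 10 genes, with 12 windows in all. VEGFA and NDRG1 were not matched. The letters ACGTG, read on either strand, were in 4 of these windows, in AK4, PDK1, CA9 and BNIP3, and in 18.5% of 35116 promoters of the same length. With GCGTG added, 8 windows of 6 genes had a match, against 43.2% of all promoters. The 4 windows with ACGTG are printed to show its place. The ADM window is set beside them, since ADM had the most changed comparisons of the set. It lacks ACGTG but holds 1 match for GCGTG, the other form of the core, which is not marked in any window. Capitals mark ACGTG or its reverse complement CACGT; where the 2 overlap they spell CACGTG.
AK4, chr1:65147302-65147551, plus strand: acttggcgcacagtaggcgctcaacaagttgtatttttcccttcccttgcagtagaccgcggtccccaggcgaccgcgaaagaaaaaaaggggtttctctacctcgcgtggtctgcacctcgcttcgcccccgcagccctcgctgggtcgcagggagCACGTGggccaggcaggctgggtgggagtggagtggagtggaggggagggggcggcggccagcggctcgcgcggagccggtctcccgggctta
PDK1, chr2:172555840-172556089, plus strand: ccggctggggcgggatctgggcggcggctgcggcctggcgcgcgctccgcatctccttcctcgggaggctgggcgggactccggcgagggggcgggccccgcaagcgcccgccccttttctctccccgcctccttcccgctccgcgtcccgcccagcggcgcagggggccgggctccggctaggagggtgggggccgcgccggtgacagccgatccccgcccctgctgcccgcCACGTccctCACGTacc
CA9, chr9:35673678-35673927, plus strand: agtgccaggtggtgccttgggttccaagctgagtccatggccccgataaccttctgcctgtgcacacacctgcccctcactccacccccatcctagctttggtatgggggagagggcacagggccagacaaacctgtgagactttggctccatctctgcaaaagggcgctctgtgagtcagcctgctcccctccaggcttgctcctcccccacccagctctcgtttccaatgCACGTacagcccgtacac
BNIP3, chr10:131981924-131982173, minus strand: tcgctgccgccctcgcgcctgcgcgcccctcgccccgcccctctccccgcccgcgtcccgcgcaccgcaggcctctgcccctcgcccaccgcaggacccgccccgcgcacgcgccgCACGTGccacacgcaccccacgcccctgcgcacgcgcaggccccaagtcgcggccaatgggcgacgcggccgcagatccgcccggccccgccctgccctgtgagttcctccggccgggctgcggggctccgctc
ADM, chr11:10304823-10305072, plus strand: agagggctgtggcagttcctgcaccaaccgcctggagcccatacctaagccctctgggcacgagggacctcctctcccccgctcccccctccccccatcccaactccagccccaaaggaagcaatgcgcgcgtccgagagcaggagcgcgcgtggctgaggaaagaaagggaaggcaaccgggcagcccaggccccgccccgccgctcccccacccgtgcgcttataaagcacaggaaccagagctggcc
In AK4 the palindrome began 93 bases before the start, and 3 other AK4 start windows had no ACGTG, though some of them held GCGTG. In BNIP3 it began 134 bases before the start. CA9 had a single match, 18 bases before the start, and PDK1 had separate matches at 17 and 8 bases in 1 of its 2 windows. A match is a description of letters, not of a bound site.

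Total counts per library ran from 8441211 to 13069598, of which mitochondrial genes and their nuclear copies took 62.1% to 83.8%, so nuclear genes had 1914570 to 3508930 counts. That share moved with treatment. It was 80.4% and 77.5% in untreated libraries, 78.0% and 83.8% after 7 days of GSK591, 62.7% and 64.3% after 7 days of MS023, and 62.1% and 63.3% after 7 days of MS023 with 3 h of Dex. Its part in the MS023 results was not tested, and the calls lost when libraries were scaled by nuclear gene totals, which leave those genes out, are given with each member. The A549 markers KRT8, KRT18, AKR1B10 and AKR1C1 had medians of 106 to 223 CPM (counts relative to library size, scaled by TMM), while EPCAM and CDH1 were low at 2.34 and 2.64 CPM. CDKN2A, which is deleted in this line, was at 0 to 0.294 CPM. Over all libraries the summed markers of leukocytes were at 1.02 to 6.02 CPM, mostly CD14, with a CD3E median of 0. Those of endothelium were at 0.208 to 2.24 CPM, and those of fibroblasts at 3.32 to 10.6 CPM, mostly COL1A1. Some of these low genes moved with the treatments (edgeR). After 7 days of MS023, COL1A1 was higher by 1.14 (from 3.25 CPM in untreated cells, adjusted p = 0.00108), 1 of 3 fibroblast markers tested, and CDH5 by 2.37 (0.217 to 1.15 CPM, adjusted p = 0.0286), 1 of 2 endothelial markers tested. CD14, the 1 leukocyte marker tested, was higher after 4 days of GSK591 (1.12) and lower with 3 h of Dex after GSK591 (-1.12) and after MS023 (-1.25). The part of other cells in the results was not tested. The glucocorticoid targets FKBP5, TSC22D3 and PER1 rose after 3 h of Dex by 2.90, 2.89 and 1.88 on the log2 scale.

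The members had unequal levels. Per kilobase of exon, untreated cells had 37.4 CPM of ADM, 5.63 of SLC2A1, 4.81 of NDRG1, 4.20 of EGLN3, 2.56 of CA9, 2.46 of BNIP3, 1.97 of VEGFA, 1.44 of PFKFB4, 1.11 of AK4 and 0.697 of PDK1. Whether reads in introns were counted is not given in the sources used here, so this order rests on dividing by the annotated exon length. In GENCODE 29 (hg38) AK4 spans chromosome 1 from 65147549 to 65232145 on the plus strand, with 7578 exonic bases of 84597. PDK1 spans chromosome 2 from 172555373 to 172608669, with 14883 of 53297, and ADM chromosome 11 from 10304680 to 10307397, with all 2718 bases exonic in at least 1 transcript. Exons of VEGFA, CA9, SLC2A1 and PDK1 overlap exons of a gene on the other strand (AL136131.3, ARHGEF39, SLC2A1-AS1 and AC078883.1), and those of SLC2A1 and PFKFB4 overlap AC099795.1 and UCN2 on the same strand. Whether the counting used strand is not given in the sources used here, so reads of these partners cannot be told apart from those of the members.

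**Figure D1:**
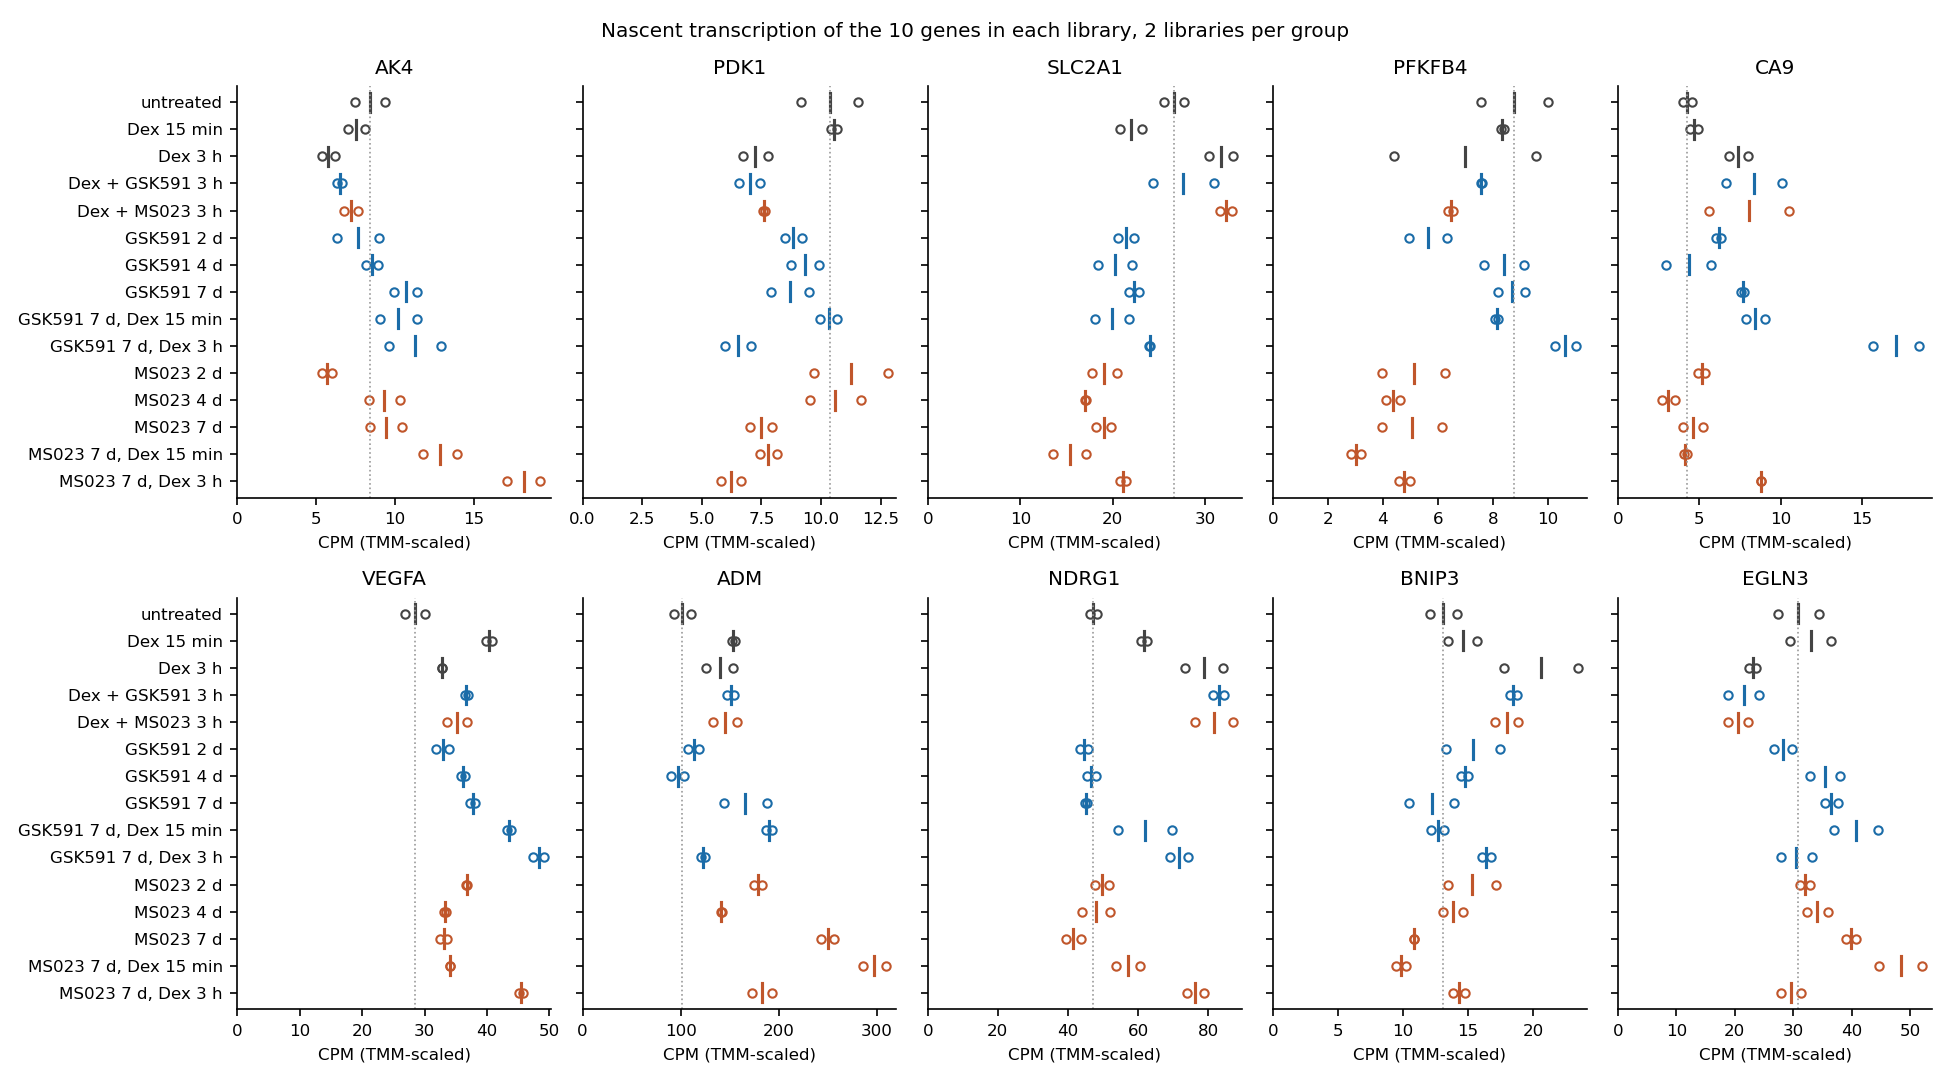
Level of each of the 10 genes (x axis, CPM scaled by TMM) in every library (open circles) of the 15 groups (y axis), with a bar at the mean of the 2 libraries and a dotted line at the untreated mean. AK4 is highest after 7 days of MS023 and 3 h of Dex, at 17.1 and 19.2 CPM. ADM is highest after 7 days of MS023 and 15 min of Dex, at 286 and 309 CPM, and NDRG1 is high in all groups with 3 h of Dex.

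Glucocorticoid moved part of the set within hours. A gene is called changed where the adjusted p of the edgeR quasi-likelihood test, over all 22919 genes tested, is below 0.05. Where libraries of the groups compared are said not to overlap, the share of all genes that do so was not computed. Such statements describe the libraries and are not evidence beside the test. After 15 min of Dex, ADM and VEGFA rose and none of the 9 fell, where 1.26% of all genes tested were called. After 3 h, CA9, NDRG1, BNIP3 and ADM rose and EGLN3 fell, 5 of 9, where 10.5% of all genes were called. The median log2 change of the 9 at 3 h was 0.25, against -0.01 over all genes. Of the 11117 genes that averaged 5 CPM or more, which are closer to the members in level, 2.42% were called at 15 min and 16.2% at 3 h.

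Under MS023 the secreted peptide ADM rose at each of the 3 times, while the glucose transporter SLC2A1 and the glycolytic regulator PFKFB4 fell at each. After 2 days of MS023, VEGFA also rose, which gave 2 higher and 2 lower of 9 (10.4% of all genes called). After 4 days there was 1 higher and 2 lower (14.2%), and after 7 days, with EGLN3 also higher, 2 higher and 2 lower (13.6%). Under GSK591 none of the 9 was called at 2 days by edgeR or DESeq2, with 2 at an unadjusted p below 0.05 (5.64% of all genes called). After 4 days of GSK591, VEGFA rose and SLC2A1 fell (17.2%), and after 7 days ADM, CA9 and VEGFA rose and none fell (13.2%). Among genes that averaged 5 CPM or more, the GSK591 share was 25.2% at 4 days and 18.8% at 7 days. The 2 of 9 called after 4 days of GSK591 were therefore near the background. For MS023 the share of those genes was 16.1%, 19.6% and 18.2% at 2, 4 and 7 days. All 8 comparisons named so far use the same 2 untreated libraries.

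Compared directly at the same time, the inhibitors differed in ADM at all 3 times, always lower under GSK591. ADM was the 1 member called at 2 days, where 2.69% of all genes were called. PFKFB4 was higher under GSK591 at 4 days, which with ADM gave 2 of 9 (6.03% of all genes). PFKFB4 was higher again at 7 days, where CA9 was also higher, 3 of 9 (9.38%). Among genes that averaged 5 CPM or more the shares were 4.24%, 8.73% and 13.6% at 2, 4 and 7 days. The other members were not called, and their intervals were wide relative to their differences. At 7 days, for example, the 95% interval of the log2 difference was -0.05 to 0.50 for SLC2A1 and -0.39 to 0.14 for EGLN3.

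Adding either inhibitor to Dex for the same 3 h left no member called against Dex alone. None of the 9 was at an unadjusted p below 0.05 in edgeR, DESeq2 also called 0, and 0% of all genes were called for GSK591 and 0.196% for MS023. The log2 differences of the 9 ran from -0.20 to 0.18 with GSK591 and from -0.19 to 0.10 with MS023. The intervals still allow changes of some size, such as -0.30 to 0.66 for CA9 with GSK591 and -0.50 to 0.12 for BNIP3 with MS023.

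After 7 days of inhibitor, 3 h of Dex raised CA9 and NDRG1, as it did without inhibitor, but lowered ADM. With Dex for 15 min NDRG1 was the 1 member called, higher both after GSK591 (2.09% of all genes called) and after MS023 (2.07%). At 3 h after GSK591, VEGFA was also higher, which gave 3 higher and 1 lower of 9 (9.85%). At 3 h after MS023, VEGFA was also higher and EGLN3 lower, which gave 3 higher and 2 lower (11.1%). Among genes that averaged 5 CPM or more, the 3 h shares were 14.4% after GSK591 and 15.8% after MS023. In the test of the difference itself, the response to 3 h of Dex after 7 days of inhibitor minus that without it, ADM was the 1 member called with each inhibitor, where 0.223% of all genes were called for GSK591 and 0.223% for MS023. Both differences use the same untreated and Dex libraries.

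**Figure D2:**
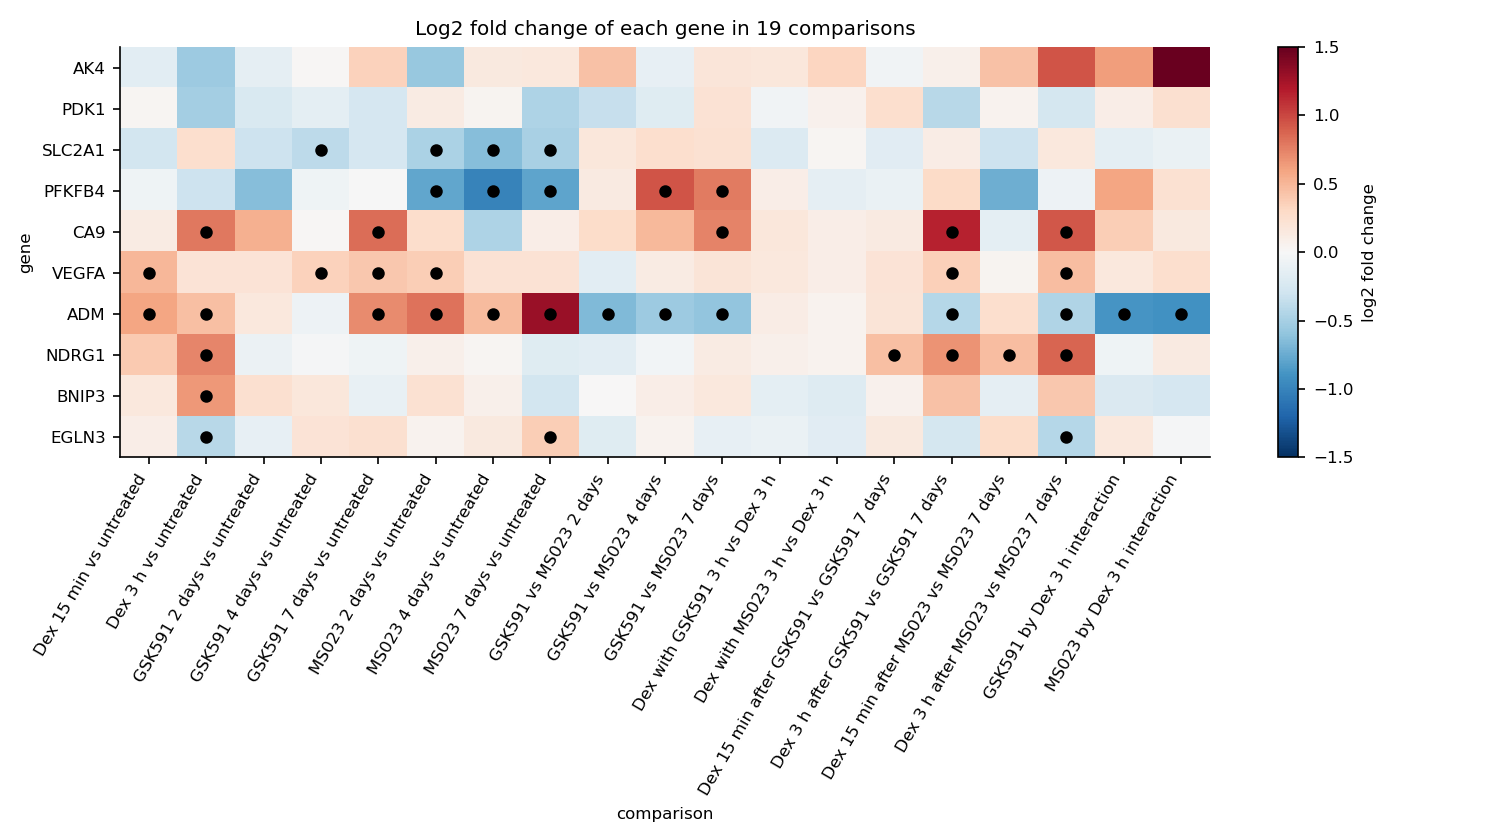
Log2 fold change (colour, from -1.5 to 1.5) of each gene (y axis) in 19 comparisons (x axis), where a dot marks an adjusted p below 0.05 and AK4 is shown without a test. ADM has 13 dots, 6 of them higher and 7 lower, and PDK1 has none.

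AK4 had its lowest level after 2 days of MS023 and its highest after 7 days of MS023 followed by 3 h of Dex. Untreated libraries had 7.45 and 9.37 CPM. After Dex for 15 min they had 8.09 and 7.00 CPM, and after 3 h 6.17 and 5.37 CPM, below both untreated libraries. Together with Dex for 3 h, GSK591 gave 6.33 and 6.66 CPM and MS023 6.78 and 7.63 CPM.

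Under GSK591 alone AK4 was at 6.32 and 8.96 CPM after 2 days, at 8.16 and 8.93 CPM after 4 days and at 11.4 and 9.92 CPM after 7 days. Dex after those 7 days gave 9.02 and 11.4 CPM at 15 min and 12.9 and 9.63 at 3 h, which overlap the values before Dex. Under MS023 alone AK4 was at 5.38 and 6.00 CPM after 2 days, at 8.31 and 10.3 CPM after 4 days and at 8.43 and 10.4 CPM after 7 days. So the 2-day libraries lay below, and the later ones around, the untreated ones.

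Dex after 7 days of MS023 was followed by 11.8 and 13.9 CPM of AK4 at 15 min and by 17.1 and 19.2 at 3 h, above every other library of the study at 3 h. On the log2 scale AK4 was 0.94 higher after 3 h of Dex than before it in MS023-treated cells and 0.08 higher in GSK591-treated cells, but -0.54 in cells without inhibitor. The resulting difference in the response to Dex was 1.49 for MS023 and 0.62 for GSK591. AK4 was chosen for its values, so these differences carry no test. Over the 13 alternatives run, which include leaving out each library of its 4 groups, the MS023 value ran from 1.31 to 1.65. That range is also a description, since AK4 was chosen on these same libraries.

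Ordered by mean, AK4 ran from 5.69 CPM after 2 days of MS023 to 18.1 CPM (± 1.51, SD, n = 2), a ratio of 3.19. Of the 14 pairs of neighbouring groups in that order, 11 overlapped. The top group was separated from the next, and Dex for 3 h, Dex with GSK591 and Dex with MS023 were separated from each other. AK4 counts rest on 44 to 260 reads per library, and its processed pseudogenes AK4P1 and AK4P3 held 540 and 379 counts over all 30 libraries, so some reads may have been split between the copies.

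**Figure D3:**
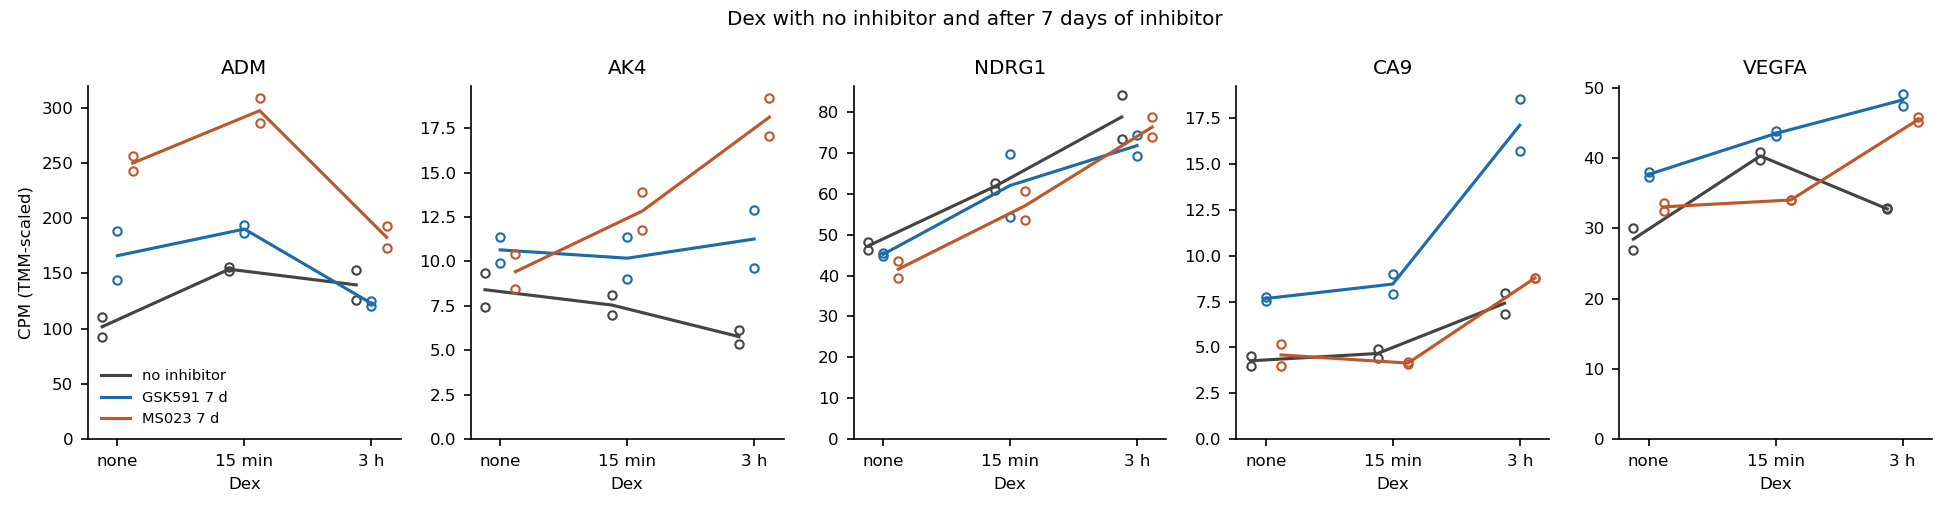
CPM scaled by TMM (y axis, from 0) of 5 genes with no Dex, after 15 min and after 3 h of Dex (x axis), in cells without inhibitor (grey), after 7 days of GSK591 (blue) and after 7 days of MS023 (orange), with circles for libraries and lines through the means of 2. With Dex, ADM goes up at 3 h without inhibitor (126 and 153 CPM against 92.8 and 111) and down after MS023 (173 and 192 against 243 and 256), while the NDRG1 lines run nearly together.

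PDK1, the pyruvate dehydrogenase kinase, was not called in any of the 19 comparisons. Untreated libraries had 11.6 and 9.17 CPM. After 3 h of Dex they had 7.76 and 6.72 CPM, a log2 difference of -0.51 (SE 0.194, adjusted p = 0.0862), and after 7 days of MS023 they had 7.01 and 7.96 CPM (-0.47, SE 0.183, adjusted p = 0.0806). Both pairs lay below the untreated pair without passing the test. The lowest mean was after 7 days of MS023 and 3 h of Dex, with 5.79 and 6.64 CPM, and the highest after 2 days of MS023, with 12.8 and 9.69 CPM.

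SLC2A1, the glucose transporter, fell under MS023. It was at 27.7 and 25.5 CPM in untreated cells, 20.4 and 17.7 after 2 days of MS023, 17.1 and 16.9 after 4 days, and 18.2 and 19.8 after 7 days. Every MS023 library lay below both untreated ones. The log2 changes were -0.48 (SE 0.135, adjusted p = 0.0149), -0.64 (SE 0.133, adjusted p = 0.000432) and -0.48 (SE 0.132, adjusted p = 0.00887). After 4 days of GSK591, SLC2A1 was at 18.4 and 22.1 CPM, lower by -0.39 (SE 0.135, adjusted p = 0.0353), and the difference between the inhibitors was not called at any time. The 4-day MS023 call held in every alternative. At 2 days it was lost with DESeq2 and without untreated replicate 1 (-0.42) or MS023 replicate 2 (-0.38). At 7 days it was lost with nuclear gene totals as scaling (-0.27) and without untreated replicate 1 (-0.42) or MS023 replicate 1 (-0.43). The GSK591 call was lost with those totals (-0.33), with no count filter, with DESeq2, and without either untreated library (-0.33 and -0.45) or GSK591 replicate 1 (-0.28).

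PFKFB4, whose product makes and removes the glycolytic activator fructose 2,6-bisphosphate, also fell under MS023. It was at 10.0 and 7.56 CPM in untreated cells and at 6.26 and 3.97 CPM after 2 days, 4.12 and 4.63 after 4 days, and 3.97 and 6.15 after 7 days of MS023. The groups did not overlap at any of the 3 times. The log2 changes were -0.78 (SE 0.243, adjusted p = 0.0302), -0.999 (SE 0.238, adjusted p = 0.00248) and -0.79 (SE 0.234, adjusted p = 0.0169).

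After 2 days of GSK591 PFKFB4 was at 6.32 and 4.94 CPM, below both untreated libraries without passing the test (-0.64, SE 0.251, adjusted p = 0.124), and it was not called between the inhibitors at that time (0.14). After 4 and 7 days of GSK591 it was at 7.68, 9.13, 9.18 and 8.17 CPM, inside the untreated range. PFKFB4 was higher under GSK591 than under MS023, by 0.94 (SE 0.237, adjusted p = 0.00845) at 4 days and 0.78 (SE 0.240, adjusted p = 0.0286) at 7 days. Dex for 15 min after 7 days of MS023 gave the lowest PFKFB4 values of the study, 3.21 and 2.83 CPM, which was not called against MS023 alone (-0.74, SE 0.262, adjusted p = 0.177). All 3 MS023 calls were lost without untreated replicate 1 (-0.57, -0.78 and -0.58 in order of time). The 2-day call was also lost without MS023 replicate 2 (-0.49), the 7-day call without MS023 replicate 1 (-0.51) and with nuclear gene totals (-0.58), and both with DESeq2. The 4-day difference between inhibitors was lost without GSK591 replicate 2 (0.81) or either MS023 library (0.85 and 1.02). The 7-day difference was lost without either GSK591 library (0.69 and 0.86) or MS023 replicate 1 (0.51), with nuclear gene totals (0.69) and with DESeq2.

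CA9, the carbonic anhydrase, rose with Dex for 3 h in each of the 3 settings. Without inhibitor it went from 4.00 and 4.53 CPM to 7.97 and 6.84 CPM, a log2 change of 0.79 (SE 0.264, adjusted p = 0.0422). With 7 days of GSK591 before it, CA9 went from 7.56 and 7.77 CPM to 18.5 and 15.7 CPM (1.16, SE 0.226, adjusted p = 0.000211). With MS023 before it, CA9 went from 3.97 and 5.21 CPM to 8.79 and 8.78 CPM (0.94, SE 0.229, adjusted p = 0.00329). The libraries before and after Dex did not overlap in any setting. The differences between the responses were not called, at 0.37 for GSK591 (95% interval -0.34 to 1.07) and 0.14 for MS023 (-0.57 to 0.85).

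GSK591 alone raised CA9 by 0.84 at 7 days (SE 0.266, adjusted p = 0.027), and CA9 was higher there than under MS023 by 0.74 (SE 0.249, adjusted p = 0.0498). Dex for 15 min was not followed by a call, with 4.94 and 4.40 CPM. The rise after GSK591 and Dex held in every alternative. The rise after MS023 and Dex was lost without MS023 7-day replicate 1 (0.76). The other 3 calls rest on 36 to 75 reads per library and were each lost with DESeq2 and without any 1 of their own 4 libraries. The values were then 0.68 to 0.90 for Dex, 0.75 to 0.93 for GSK591 and 0.56 to 0.95 between inhibitors. The first and the last were also lost with nuclear gene totals as scaling, and the last with no count filter.

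VEGFA, the vessel growth factor, was lowest in untreated cells among all 15 groups, with 26.9 and 30.0 CPM. After 15 min of Dex it was at 40.9 and 39.8 CPM, a rise of 0.50 (SE 0.106, adjusted p = 0.0031). After 3 h of Dex it was at 32.8 and 32.7 CPM, which was not called (0.20, SE 0.108, adjusted p = 0.262). In cells without inhibitor the rise was therefore called at 15 min only, and the 2 times were not tested against each other.

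Under GSK591 VEGFA was at 36.5 and 35.8 CPM at 4 days (0.34, SE 0.106, adjusted p = 0.0186) and at 37.3 and 38.1 at 7 days (0.40, SE 0.108, adjusted p = 0.00751). Under MS023 it was at 36.7 and 36.8 CPM at 2 days (0.37, SE 0.106, adjusted p = 0.0178). Dex for 3 h raised it further, to 47.4 and 49.2 CPM after GSK591 (0.36, SE 0.104, adjusted p = 0.0178) and to 45.1 and 45.8 CPM after MS023 (0.46, SE 0.0998, adjusted p = 0.000788). The groups did not overlap in any of these comparisons. The difference in the response to Dex was not called, at 0.16 (-0.15 to 0.46) for GSK591 and 0.26 (-0.04 to 0.55) for MS023. Only the rise after MS023 and Dex held in every alternative. Without untreated replicate 1 the 4 calls against untreated cells were lost (0.42 for Dex, 0.27 and 0.32 for GSK591, 0.29 for MS023). Other calls were lost without Dex 15 min replicate 1 (0.48), without either library of the inhibitor group (0.32 to 0.41 for GSK591, 0.36 for MS023) and, for the inhibitors, with no count filter. The rise after GSK591 and Dex was lost without any 1 of its 4 libraries (0.33 to 0.38), with nuclear gene totals, with no count filter and with DESeq2.

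ADM, the vasodilator peptide adrenomedullin, had the highest level of the members per kilobase of exon and was called in 13 of 19 comparisons. Untreated libraries had 92.8 and 111 CPM. Under MS023 they had 174 and 183 CPM after 2 days, 141 and 142 CPM after 4 days and 243 and 256 CPM after 7 days. These are log2 rises of 0.81 (SE 0.113, adjusted p = 8.88e-07), 0.47 (SE 0.112, adjusted p = 0.00224) and 1.30 (SE 0.113, adjusted p = 3.93e-12), and every MS023 library lay above both untreated ones.

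Under GSK591 ADM was at 108 and 118 CPM at 2 days and 90.1 and 104 at 4 days, which overlap the untreated values. At 7 days it was at 144 and 188 CPM, a rise of 0.70 (SE 0.113, adjusted p = 8.63e-06). ADM was lower under GSK591 than under MS023 by -0.66 (SE 0.113, adjusted p = 0.000144), -0.54 (SE 0.112, adjusted p = 0.000866) and -0.59 (SE 0.111, adjusted p = 0.000164) at 2, 4 and 7 days.

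The response of ADM to 3 h of Dex had opposite signs without and after inhibitor. Without inhibitor Dex gave 155 and 152 CPM at 15 min (0.60, SE 0.113, adjusted p = 0.000696) and 126 and 153 CPM at 3 h (0.45, SE 0.113, adjusted p = 0.00413), all above untreated cells. In GSK591-treated cells Dex gave 187 and 193 CPM at 15 min, which was not called, and 120 and 125 CPM at 3 h, a fall of -0.43 (SE 0.113, adjusted p = 0.00669). In MS023-treated cells it gave 286 and 309 CPM at 15 min, not called, and 173 and 192 CPM at 3 h, a fall of -0.45 (SE 0.110, adjusted p = 0.003). The difference in the 3 h response was -0.89 for GSK591 (SE 0.160, adjusted p = 0.00307) and -0.91 for MS023 (SE 0.158, adjusted p = 0.0022).

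The rises under MS023 at 2 and 7 days, the rise under GSK591 at 7 days and the 2-day difference between inhibitors held in every alternative. Without untreated replicate 1 the rises with Dex at 15 min (0.47) and 3 h (0.33), the 4-day MS023 rise (0.36) and both differences in response (-0.77 and -0.78) were lost. Without Dex 3 h replicate 2 the 3 h rise (0.31) and both differences in response (-0.75 and -0.76) were lost. The difference for GSK591 was also lost without GSK591 7-day replicate 2 (-0.69). The fall after GSK591 was lost without that library (-0.23) or without the first library of GSK591 and Dex (-0.41), and the fall after MS023 without MS023 7-day replicate 2 (-0.41) or the first library of MS023 and Dex (-0.37). The differences between inhibitors were lost at 4 days without GSK591 replicate 1 (-0.46) and at 7 days without GSK591 replicate 1 (-0.42).

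NDRG1, a stress-response gene, rose with 3 h of Dex in each of the 3 settings. It went from 46.2 and 48.3 CPM to 73.5 and 84.1 CPM without inhibitor (0.74, SE 0.114, adjusted p = 3.08e-06). It went from 45.6 and 44.8 to 74.3 and 69.2 CPM after GSK591 (0.67, SE 0.115, adjusted p = 2.6e-05), and from 39.4 and 43.6 to 74.0 and 78.7 CPM after MS023 (0.88, SE 0.111, adjusted p = 2.78e-08). These 3 calls held in every alternative, and the libraries before and after Dex never overlapped. The differences in response were -0.07 for GSK591 (95% interval -0.39 to 0.26) and 0.14 for MS023 (-0.18 to 0.46). With Dex given together with an inhibitor NDRG1 was at 81.5 and 84.6 CPM for GSK591 and 87.2 and 76.1 CPM for MS023.

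At 15 min of Dex NDRG1 was at 62.7 and 60.9 CPM without inhibitor, above both untreated libraries without passing the test (0.39, SE 0.114, adjusted p = 0.0857). It was at 69.7 and 54.4 CPM after GSK591 (0.45, SE 0.116, adjusted p = 0.0223) and at 53.6 and 60.6 CPM after MS023 (0.46, SE 0.112, adjusted p = 0.0137). The inhibitors alone gave no call, with 39.4 to 51.9 CPM in all their libraries. Both 15-min calls were lost with nuclear gene totals (0.38 and 0.44) and without either 7-day library (0.46 and 0.43 for GSK591, 0.40 and 0.53 for MS023). They were also lost without replicate 1 of GSK591 and Dex (0.26) and replicate 2 of MS023 and Dex (0.36), and the second with no count filter (0.41).

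BNIP3, the mitophagy receptor, was called in 1 comparison, Dex for 3 h without inhibitor. It went from 14.1 and 12.1 CPM to 17.8 and 23.4 CPM (0.65, SE 0.160, adjusted p = 0.00377), and the call was lost without untreated replicate 2 (0.54) or Dex 3 h replicate 2 (0.44). In GSK591-treated cells BNIP3 went from 10.5 and 13.9 to 16.1 and 16.7 CPM (0.44, SE 0.169, adjusted p = 0.0966) and in MS023-treated cells from 10.8 and 10.9 to 13.8 and 14.8 CPM (0.40, SE 0.155, adjusted p = 0.0916). Both pairs lay above those before Dex but did not pass the test, and the differences in response were not called (-0.21, -0.68 to 0.26, and -0.25, -0.70 to 0.20).

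EGLN3, the HIF prolyl hydroxylase, fell with 3 h of Dex in 2 settings. Without inhibitor it went from 34.4 and 27.4 CPM to 23.6 and 22.5 CPM (-0.42, SE 0.140, adjusted p = 0.0435), and after MS023 from 40.7 and 39.0 to 31.3 and 27.8 CPM (-0.43, SE 0.128, adjusted p = 0.0181). After GSK591 it went from 37.7 and 35.4 to 33.2 and 27.9 CPM, which was not called (-0.26, SE 0.137, adjusted p = 0.265). The difference of that response from the one without inhibitor was not called either (0.16, -0.23 to 0.55). MS023 for 7 days raised it by 0.37 (SE 0.131, adjusted p = 0.0491).

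All 3 EGLN3 calls were lost with DESeq2. The first was also lost with no count filter and without untreated replicate 1 (-0.25) or either Dex library (-0.45 and -0.39). The second was lost without either 7-day MS023 library (-0.39 and -0.46) or replicate 2 of MS023 and Dex (-0.35). The third was lost without untreated replicate 2 (0.22) or either MS023 library (0.33 and 0.40).

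Genes of the same pathway were followed in 4 lists. Of 11 genes of the oxygen-sensing pathway itself (HIF1A, EPAS1, HIF3A, ARNT, ARNT2, VHL, EGLN1, EGLN2, HIF1AN, EP300 and CREBBP), 1 fell after 3 h of Dex and none rose, a share below the 10.5% of all genes called. It was EPAS1, which encodes HIF-2 alpha (-0.72, SE 0.17). The list median was -0.11, against -0.01 over all genes. After 2 days of GSK591 none was called (edgeR), with 2 at an unadjusted p below 0.05, and after 2 days of MS023 HIF3A fell by -2.33 from a low level (1.00 to 0.187 CPM), 1 of 11 against 10.4% of all genes. After 4 days of GSK591 CREBBP (-0.47) and EGLN2 (-0.43) fell, 2 of 11 against 17.2%, and after 4 days of MS023 EGLN1 rose (0.38) and EGLN2 fell (-0.33), 2 of 11 against 14.2%. HIF3A was at -1.73 and -1.78 at 4 days, which was not called. These shares were near or below those of all genes. After 7 days of GSK591 none was called, with 1 at an unadjusted p below 0.05. After 7 days of MS023 the hydroxylase EGLN1 rose by 0.34, 1 of 11 against 13.6% of all genes. EGLN1 was lower under GSK591 than under MS023 by -0.50 at 7 days, and EGLN2 by -0.42, 2 of 11 against 9.38%. Dex for 3 h after inhibitor raised EGLN2, by 0.57 after GSK591 and 0.46 after MS023. That was 1 of 11 in each, against 9.85% and 11.1% of all genes. Counts of 1 or 2 of 11 are not read as a result about the list.

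The next list held 14 other glycolytic genes known as HIF targets. With TMM scaling its calls under the inhibitors were mostly downward at 4 and 7 days but not at 2 days. Counts of the lists were not rerun under the alternatives. Scaling by nuclear gene totals moved the median of all genes up by 0.06 for 4 days of GSK591 and by 0.18 for 4 days of MS023. At 7 days it moved up by 0.12 for GSK591 and by 0.21 for MS023. After 2 days 1 rose and 1 fell with GSK591 (5.64% of all genes called), and 4 rose and none fell with MS023 (10.4%), among them the lactate exporter SLC16A3 (1.08), the glucose transporter SLC2A3 (0.84) and TPI1 (0.43). The highest log2 change of the list with MS023 at that time, 1.55, was in another gene. After 4 days 1 rose and 7 fell with GSK591 (17.2%) and 1 rose and 7 fell with MS023 (14.2%). After 7 days 1 rose and 5 fell with each (13.2% and 13.6%). With GSK591 for 7 days the largest calls were PGK1 (phosphoglycerate kinase, -0.78), LDHA (lactate dehydrogenase, -0.69) and PGM1 (phosphoglucomutase, 0.63). With MS023 they were HK2 (hexokinase, 1.65), PGK1 (-0.85) and LDHA (-0.83). The list medians were -0.28 and -0.17, against -0.00 and 0.01 over all genes. After 3 h of Dex 3 rose and 1 fell (10.5%), led by SLC16A3 (0.91), LDHA (0.56) and TPI1 (triose phosphate isomerase, 0.52), with a list median of -0.02. LDHA was lower after 7 days of each inhibitor and higher after Dex.

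Of 22 further HIF targets of other functions, 3 rose and none fell after 15 min of Dex (1.26% of all genes called), among them ANGPTL4 (a lipoprotein lipase inhibitor, 1.95) and DDIT4 (an mTORC1 inhibitor, 0.50). After 3 h 3 rose and 2 fell (10.5%), with ANGPTL4 at 1.72, DDIT4 at 1.20 and the carbonic anhydrase CA12 at -0.60. CA9, its relative, rose in the same comparison. With GSK591 for 7 days 1 rose and 2 fell, PPP1R3C by 0.77, ANGPTL4 by -0.62 and GBE1 by -0.49. With MS023 for 7 days also 1 rose and 2 fell, with CA12 at 0.61 and ANGPTL4 at -0.59. These 7-day counts, 3 of 22 each, were near the shares of all genes called, 13.2% and 13.6%, and are not a result about the list. The list medians were -0.01 after 3 h of Dex, 0.04 after GSK591 and -0.15 after MS023.

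Relatives of the members formed the fourth list, with 17 of 18 tested. PDK4, a sister kinase of PDK1, rose by 1.90 after 3 h of Dex, and VEGFC, a sister of VEGFA, fell by -1.30, the 2 calls of that comparison. GSK591 for 7 days was followed by 2 calls, as PDK2 rose by 1.11 and NDRG2 by 0.97. After 7 days of MS023 NDRG2 rose by 0.98, and VEGFC (-1.62) and PDK2 (-0.56) fell. These counts, 2, 2 and 3 of 17, were also near the shares of all genes (10.5%, 13.2% and 13.6%). Between the inhibitors at 7 days PDK2 was 1.66, VEGFC 1.14 and the adenylate kinase AK5 0.63 higher under GSK591. The list medians were -0.11 after 3 h of Dex, 0.23 after 7 days of GSK591 and -0.15 after 7 days of MS023. Scaling by nuclear gene totals moved the median of all genes up by 0.12 for 7 days of GSK591 and by 0.21 for 7 days of MS023, which is less than the change of any gene named here from the 4 lists in those comparisons. It is more than the list medians of -0.17, -0.15 and -0.15 after MS023 and 0.04 after GSK591, so no direction is read from those medians.

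**Figure D4:**
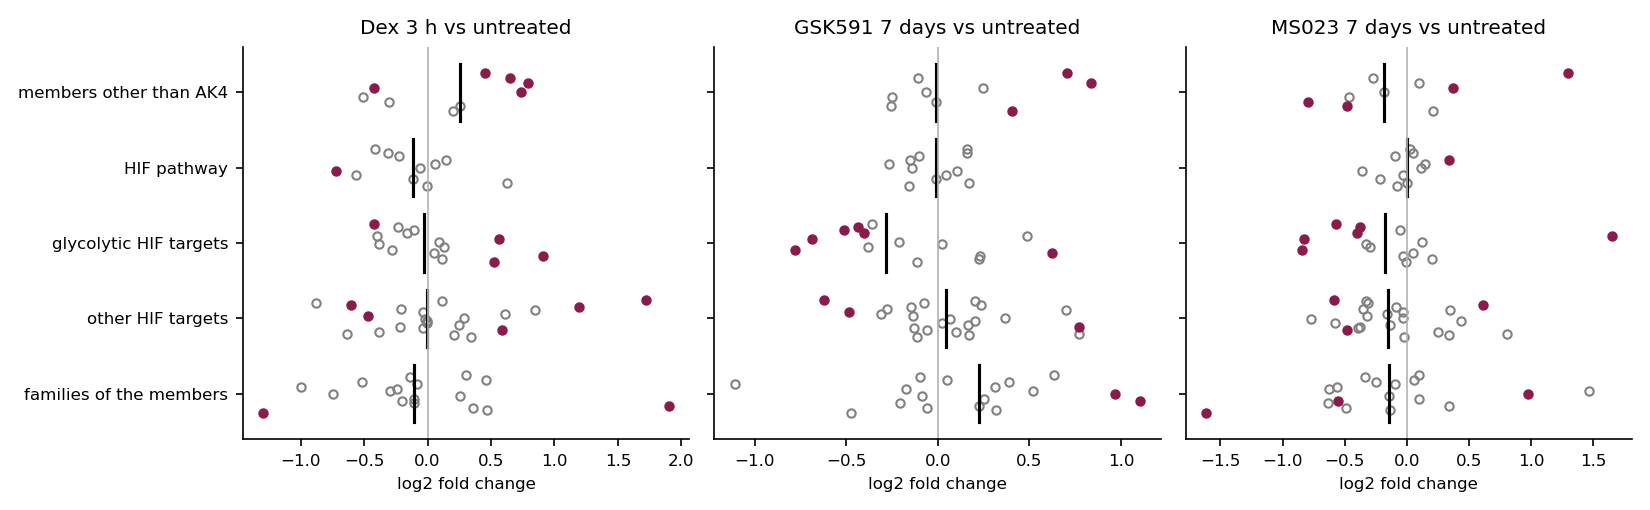
Log2 fold change (x axis) of the 9 members other than AK4 and of the 4 supporting lists (y axis) in 3 comparisons with untreated cells, where filled points have an adjusted p below 0.05 and the bar is the list's median. The medians lie between -0.28 and 0.25, and called members lie on both sides of 0 with Dex and with MS023.

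The authors' deposited tables of comparisons with untreated cells, which come from another counting, gave a different account of PDK1. They also differed in some calls of other members, among them NDRG1, CA9 and EGLN3. Of the 10 members, 8 were matched by symbol in the 14 tables. AK4 and SLC2A1 were not matched, so their values could not be compared. In the authors' deposited tables PDK1 was lower at an adjusted p below 0.05 in 13 of 14, all but Dex for 15 min, with log2 fold changes down to -1.28. For NDRG1 they gave 7 higher and 4 lower, the rise after 3 h of Dex at 1.22 and falls of -0.51 and -0.58 after 7 days of GSK591 and MS023 in the authors' deposited tables. The authors' deposited tables also had NDRG1 higher after 15 min of Dex (0.72, DESeq2 adjusted p = 1.13e-13), which was not called here. Their falls of NDRG1 under the inhibitors alone were not called here either. ADM was higher in 11 of the authors' deposited tables, with 1.72 after 7 days of MS023 and 15 min of Dex, VEGFA in 10 and BNIP3 in 6, none of them lower in any. The authors' deposited tables gave CA9 as higher in 2, after 7 days of GSK591 and 3 h of Dex (1.54) and after MS023 and Dex (1.46), and not after 7 days of GSK591 alone (-0.08). PFKFB4 was lower in 4 of the authors' deposited tables, all with MS023, and EGLN3 was higher in 3 and lower in 2. After 3 h of Dex alone the authors' deposited tables called neither CA9 (0.30, DESeq2 adjusted p = 0.29) nor EGLN3 (-0.37, adjusted p = 0.12). Both were called here.

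Across the 15 group means the members did not follow AK4 closely. On log2 CPM, Pearson's r with AK4 was 0.51 for EGLN3, 0.46 for VEGFA, 0.35 for ADM, 0.18 for CA9, -0.02 for NDRG1, -0.21 for PFKFB4, -0.37 for PDK1, -0.45 for SLC2A1 and -0.57 for BNIP3. Among 11116 genes of at least 5 CPM, those most like AK4 were the antisense gene AC105339.3 (0.87), the glycine decarboxylase gene GLDC (0.86) and the kinase gene PRKX (0.86). GLDC was at 27.4 CPM after MS023 and Dex for 3 h against 7.90 in untreated cells, and PRKX at 11.9 against 10.9. Between members, r ran from -0.91 for BNIP3 with EGLN3 to 0.77 for SLC2A1 with BNIP3. These are descriptions over 15 points that share libraries, scaling and design.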

How the data were processed

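The data are whole-number counts per gene that the authors deposited for 30 PRO-seq libraries, made with featureCounts 2.0.1 (Subread) and hg38 per the submitters' processing notes. The aligner, the feature type and the use of strand are not given in the sources used here. The authors also deposited 14 comparison tables of 28873 genes each. Per the file headers these hold DESeq2's mean normalised signal per gene, log2 fold changes with standard errors, and p-values and adjusted p-values. Members were matched by symbol in them.

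Counts were tested by edgeR's quasi-likelihood test (edgeR 4.0.16 and limma 3.58.1 in R 4.3.3), scaled by TMM and fitted robustly. A single model held all 15 groups without covariates and left 15 residual degrees of freedom. Of 58780 genes, 22919 passed filterByExpr, set to a minimum count of 10 and a minimum total of 15, and Benjamini-Hochberg adjustment ran over these. The threshold was 0.05. The test of a difference in response subtracts the response to Dex without inhibitor from that after it. Standard errors and 95% intervals come from the shared fit. The script was tested on simulated data. Alternatives were DESeq2 1.42.0, DESeq2's size factors, scaling by nuclear gene totals, no filter, a replicate block, and each library left out in turn. With 2 libraries against 2, an exact permutation test cannot reach the threshold, so each test borrows its spread from all 15 groups. No molecular identifiers are mentioned, so counts may include PCR copies.

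Likeness to AK4 was taken over genes that averaged 5 CPM or more, on log2 CPM with a prior count of 2. Named genes are all 10 members, FKBP5, TSC22D3 and PER1, the 3 genes most like AK4 and, from each list, at most the 3 called genes of largest change per comparison described. Some genes of the lists are counted there but not reported here by name. The members and lists were chosen with earlier results of these data known. Promoters are RefSeq sequences of GRCh38.p14, and exon overlaps come from GENCODE 29. Figures were drawn with matplotlib 3.10.9.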

Additional observations from a re-analysis of the deposited data

Results flagged for a closer look

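The response of ADM to 3 h of Dex differed between cells without inhibitor and cells after 7 days of either inhibitor, by the test of the difference itself. Without inhibitor ADM went from 92.8 and 111 CPM to 126 and 153 CPM. After GSK591 it went from 144 and 188 CPM to 120 and 125 CPM, and the difference in log2 response was -0.89 (SE 0.160, edgeR adjusted p = 0.00307). After MS023 it went from 243 and 256 CPM to 173 and 192 CPM, and the difference was -0.91 (SE 0.158, adjusted p = 0.0022). The libraries before and after Dex did not overlap in any of the 3 settings, which is a description, since the share of all genes without overlap was not computed. Over the 13 alternatives run the differences ran from -1.07 to -0.69 for GSK591 and from -1.04 to -0.76 for MS023. The calls were lost without untreated replicate 1, without Dex 3 h replicate 2 and, for GSK591, without GSK591 7-day replicate 2. Both differences share the untreated and the Dex libraries, so they are not separate evidence.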

How the results depend on the processing

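Of the 42 calls of members, 10 held under every alternative run and 32 were lost under at least 1, and none changed sign. DESeq2's size factors lost 0 calls, no count filter 8, nuclear gene totals 9, DESeq2 12, and leaving out 1 library 32. Without untreated replicate 1, 18 of the 25 calls that use it were lost, without untreated replicate 2, 5 of 25, and without Dex 3 h replicate 2, 6 of 7. An arm left with 1 library was assumed to vary like the other groups. Nuclear gene totals moved the median of all genes by more than 0.1 at 7 days of GSK591 (0.12), 4 days of MS023 (0.18), 7 days of MS023 (0.21), between the inhibitors at 4 days (-0.12) and for GSK591 with Dex against Dex (0.12).

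With DESeq2, 3 members in place of 5 were called for Dex 3 h, 1 in place of 2 for GSK591 at 4 days, 2 in place of 4 for MS023 at 2 days and 2 in place of 4 at 7 days, and 1 in place of 3 between inhibitors at 7 days. Over all genes its calls fell too, in the same order from 2410 to 1470, 3941 to 2397 and 2381 to 1293. At 7 days they fell from 3127 to 1739 for MS023 and from 2149 to 1091 between inhibitors. With nuclear gene totals 1 was called for GSK591 at 4 days, 1 between inhibitors at 7 days, and 0 for Dex 15 min after GSK591 and 0 after MS023, in place of 1 each. Over all genes the calls were 3796 in place of 3941 and 2216 in place of 2149. For Dex 15 min they were 417 in place of 480 and 350 in place of 474. With no count filter 0 were called for GSK591 at 4 days and 0 for Dex 15 min after MS023. Over all genes the calls were then 3499 in place of 3941 and 473 in place of 474. The cause was not tested.

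Leaving out 1 library at a time, the number of members called ran from 0 to 2 for Dex 15 min, from 1 to 4 for Dex 3 h, from 0 to 1 for GSK591 at 4 days and from 1 to 2 at 7 days. It ran from 1 to 4, 1 to 3 and 1 to 3 for MS023 at 2, 4 and 7 days, was 1 at 4 days and ran from 0 to 2 at 7 days between inhibitors. For Dex 15 min it ran from 0 to 1 after GSK591 and from 0 to 1 after MS023, for Dex 3 h from 2 to 3 and from 3 to 4, and for both differences in response from 0 to 1. Fewer libraries also leave fewer degrees of freedom. Shares over all genes were not kept for these fits, so the ranges are not read as a result about the members.

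The replicate number showed no pairing shared by all groups, and pairing within some of the groups was not tested. Over 105 pairs of groups the differences between replicates had correlations of -0.45 to 0.49, with a median of 0.02, over 11117 genes. With the replicate number as a block, which fits a single difference shared by all groups, all 42 calls held. The number of members called was unchanged in every comparison, such as 5 for Dex 3 h and 4 for MS023 at 7 days. Over all genes the block raised the calls for Dex with MS023 against Dex from 45 to 114. For the MS023 difference in response it raised them from 51 to 81, and it lowered them in no comparison.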
